A study of Arabidopsis thaliana with 60 samples.

Results

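The genes described here are the steadiest of the brightly measured, locus-named genes on an Arabidopsis thaliana leaf array series. A probe set, the group of short probes that measures a transcript on the array, belonged to them when it met 3 conditions. It was annotated to a single gene known in the array annotation only by its AT-locus identifier, its mean signal was 100 or more in every one of 20 leaf sets, and its highest and lowest set values differed by 0.6 or less on the scale of log2(mean signal + 6). Of 22810 probe sets, 64 of them controls, 11933 carried a single locus-named gene, 1273 of those were at 100 or more in every set, and 78 also met the limit on range. The 78 probe sets belonged to 78 different genes. The genes were thus chosen by their measured set means, so the levels and ranges below are descriptions, and no test is applied to them as evidence of stability.

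The series holds 60 arrays of total RNA, 3 for each of 20 sets. In 16 sets plants grew on soil in continuous light at 23 °C and 65% humidity. Of these, 14 came from the Col-0 accession: cotyledons, leaves 1 and 2 together, leaf 4 at 1 cm length, rosette leaves 2, 4, 6, 8, 10 and 12, cauline leaves, which grow on the flowering stem, the petiole, proximal and distal portions of leaf 7, and senescing leaves. The other 2 were leaf 4 at 1 cm and leaf 12 of gl1T, a line that the labels identify only by this name, with Col-0 given as the background of its leaf 12. The labels give a length of about 1 cm for Col-0 rosette leaf 12 and none for gl1T leaf 12 or rosette leaf 2, so comparisons among these are not known to be matched in leaf size. Another 3 sets, numbered 87, 89 and 90 in the labels, were vegetative Col-0 rosettes from short days of 10 h light and 14 h dark at 22 °C, and 1 set was Col-0 leaf grown on medium with 1% sucrose at 22 °C. Plant ages are not used here, and the labels record soil on the Col-0 leaf 4 samples of 1 cm. They do not say that the 3 arrays of a set came from separate plants, so the spread between them may be technical.

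Genes with steady transcript levels are used as internal references when other transcripts are quantified, for example in quantitative PCR. Traditional choices are genes of metabolism, the cytoskeleton and protein turnover, and searches of large array collections later added less familiar genes. Array scaling sets each array to a common overall brightness, so a steady signal means a steady share of the measured RNA. In a whole leaf, fewer cells of a type and less RNA per cell cannot be told apart.

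The deposited scaling fixes the trimmed mean of every array at 100, while the array medians, which it leaves free, ran from 32.2 to 40.03. Arrays of the same set correlated at 0.982 to 0.990. The ratio of 3′ to 5′ signal of the GAPDH control, a measure of RNA integrity, ran from 0.824 to 3.23. The first gl1T leaf 12 array stood apart, with that highest ratio, where the other arrays of its set had 1.34 and 1.39, and with the highest array median. Leaf identity was checked with mesophyll genes: RCA, which encodes Rubisco activase, had set means of 2856 to 4992, LHCB4.1, of the light-harvesting antenna, 1323 to 6071, and PRK, of the Calvin cycle, 801 to 3980. PYK10, a beta-glucosidase known from roots, ranged from 8.88 to 2088 over the sets, and WRKY53, a transcription factor of leaf senescence, from 12.4 to 462. Listed markers of epidermis, phloem and flower were not measured by single-gene probe sets used here. For guard cells 1 of 3 listed markers was measured and for trichomes 1 of 2, and neither reached a mean of 100 in every set.

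The ranges of the 78 genes lay between 0.29 and 0.60, with a median of 0.51. As a ratio of the highest to the lowest set mean, the genes covered 1.24 to 1.54, with a median of 1.44. The 1195 equally bright locus-named probe sets past the limit covered 1.53 to 56.7, with a median of 2.55. The stable genes had a median mean signal of 173 against 303 for the others. The rule partly fixes this contrast, because above a shared floor of 100 in the lowest set a wider range raises the mean. By lowest set mean, the share of stable genes did not fall steadily with brightness. It was 7.41% at 100 to 150, 3.83% at 200 to 400 and 11.8% (2 of 17) at 800 or more. Of the 78, 49 had a mean signal under 200 and 8 reached 500 or more, within limits of 117 and 1998. Of the bright probe sets named by a gene symbol rather than a locus, 6 of 324 met the same limits, or 1.85%, against 6.13% of the locus-named. Probe sets with no gene or several lay between, with 88 of 1843, or 4.77%.

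**Figure D1:**
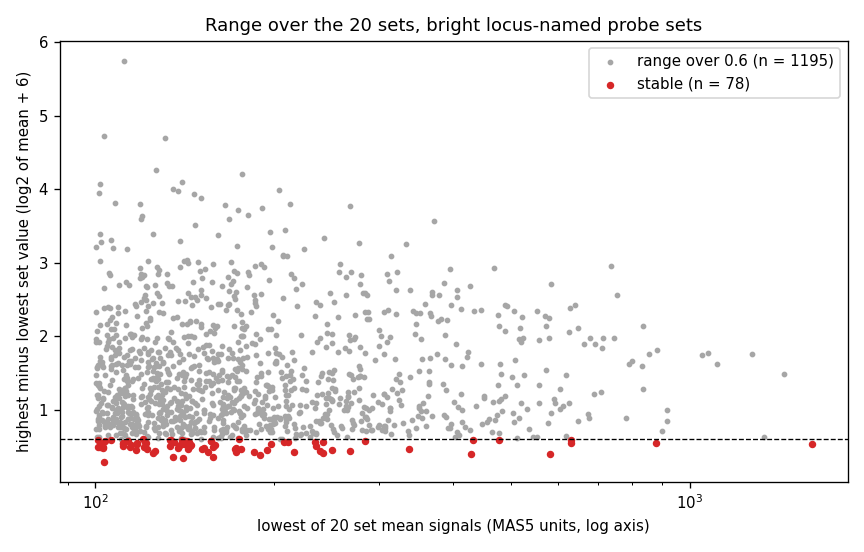
Range over the 20 sets (highest minus lowest log2 of set mean + 6) against the lowest set mean signal on a log axis for the 1273 bright locus-named probe sets, with the 78 stable ones in red and the limit of 0.6 as a dashed line. The stable genes lie along the whole axis of brightness, from a little above 100 to above 1000.

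For all 78 genes the arrays of the highest and the lowest set did not overlap, which comes with picking the extremes of 20 sets. The share among the other bright probe sets was not counted, so nothing is read from this about the stable genes. AT1G08750 had the narrowest range, 0.29. Its lowest set was rosette leaf 4, with arrays at 108, 102 and 100.4, and its highest was short-day set 90, with arrays at 124, 129 and 130.0. All 60 of its arrays lay between 96.3 and 141, and the senescing arrays, at 123, 107 and 119.7, fell in the middle of that span.

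AT3G28720 followed with a range of 0.35, from a mean of 141 ± 9.40 (SD, n = 3) in rosette leaf 8 to 181 ± 6.09 in leaf 4 of 1 cm. AT5G53140 had a range of 0.36, and its lowest and highest sets were leaf 12 of the different lines. Its Col-0 leaf 12 arrays read 162, 183 and 128, its gl1T leaf 12 arrays 202, 203 and 205, and the Col-0 arrays spread far more widely.

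AT1G43900 ranged by 0.36, from 135 ± 9.47 in cotyledons to 175 ± 7.77 in short-day set 89. AT4G24330 ranged by 0.38, from 189 ± 9.45 in rosette leaf 2 to 248 ± 10.7 in leaf 4 of 1 cm. The remaining genes of the 10 with the narrowest ranges were AT3G43520, AT3G42050, AT5G51880, AT1G29040 and AT5G58490, with ranges of 0.40 to 0.42. Rosette leaf 2 was the lowest set for AT3G43520 and AT1G29040. Short-day set 89 was the lowest for AT3G42050 and the highest for AT5G51880. The senescing set was the highest for AT3G43520 and the lowest for AT5G58490.

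The brightest stable gene was AT3G48140, with a mean signal of 1998 over the sets. Its arrays read 1743, 1377 and 1702 in short-day set 89, the lowest set, and 2249, 2411 and 2314 in the distal portion of leaf 7, the highest. The senescing arrays, at 1597, 1726 and 1977, lay between these sets in mean.

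AT5G11770 read 789, 993 and 856 in rosette leaf 12, its lowest set, and 1310.0, 1296 and 1268 in senescing leaves, its highest. It therefore ran against AT3G58730 in the senescing set. AT3G58730 carries the synonym VHA-D in RefSeq, for subunit D of the vacuolar proton-pumping ATPase, which acidifies the vacuole and other compartments, and it is the only one of the 78 with a name beyond its locus there.

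The arrays of AT3G58730 read 612, 606 and 677 in senescing leaves, its lowest set, and 927, 972 and 958 in rosette leaf 6, its highest. Its short-day means were also low, at 714 ± 9.43, 668 ± 35.8 and 666 ± 16.2 (SD, n = 3) in sets 87, 89 and 90. Between arrays of a set it had the smallest spread of all 78 genes, an SD of 0.068 in log2 pooled over the sets, so a nearly full range of 0.59 came with arrays that lay close together.

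AT3G42050 had nearly as small an array spread, 0.071, and a range of 0.40. Its arrays read 571, 592 and 587 in short-day set 89 and 693, 795 and 825 in the petiole of leaf 7, with senescing arrays at 640.2, 670.0 and 659. AT3G43520 read 488, 390.1 and 407 in rosette leaf 2 and 550.3, 573 and 573 in senescing leaves. AT3G42050 was thus intermediate in senescing leaves and AT3G43520 high.

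AT1G63770 was lowest in short-day set 90, at 605, 637 and 655, and highest in leaves 1 and 2, at 937, 869 and 971. Its senescing arrays, at 956, 895 and 911, stood near that upper end. The other genes among the 10 brightest were AT5G46020, AT5G16660, AT5G01650 and AT5G66120, with mean signals of 343 to 580 and ranges of 0.46 to 0.59.

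**Figure D2:**
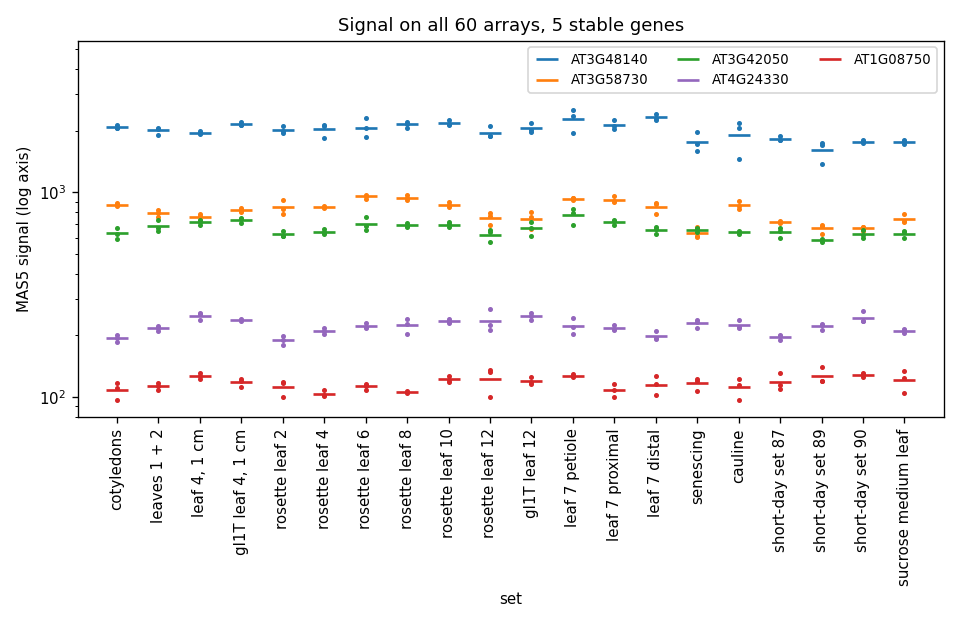
MAS5 signal on a log axis of 5 stable genes in each of the 20 sets, with a point for each array and a dash for each set mean. AT3G58730 dips in the senescing and short-day sets, to means of 632 to 714, while AT1G08750 keeps all its arrays between 96.3 and 141.

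The limit of 0.6 cut through a continuous run of values. The 5 genes just inside it were AT5G16660 and AT5G46020, both at 0.591, AT5G06260 at 0.593, AT1G04140 at 0.595 and AT1G30910 at 0.598. The 5 just outside were AT1G75370 at 0.6001, AT5G25940 at 0.6013, AT1G22610 at 0.6016, AT3G05280 at 0.6020 and AT2G07360 at 0.6026.

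The spread between arrays of a set, which the choice of genes did not use directly, was not smaller for the stable genes. Their pooled SD had a median of 0.112 in log2 and ran from 0.068 to 0.206, against a median of 0.10 for the 1195 others, and 50 of the 78 exceeded that median. The stable genes were also the higher in each of 5 classes of brightness, from 0.116 against 0.106 where the lowest set mean was 100 to 150 to 0.106 against 0.0909 where it was 200 to 400 and nearly equal values where it was 800 or more. The SD between set values, which the rule did constrain, had a median of 0.143, against 0.351 for the others. The SD between set values was thus a median of 1.25 times the SD of single arrays within sets, and 3.44 times for the others. Means of 3 arrays vary less than single arrays, so equal SDs would not mean that the sets were alike.

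AT5G42960 had the largest spread within sets, 0.206. Its arrays read 108, 100.5 and 95.8 in rosette leaf 2, its lowest set, and 165, 139.7 and 133 in short-day set 90, its highest. Over all 60 arrays it ran from 83.6 to 165, so single arrays fell below 100 although no set mean did. AT5G58640, AT1G25420, AT4G10810 and AT5G16660 followed, with SDs of 0.143 to 0.161, and the smallest spreads after AT3G58730 and AT3G42050 were those of AT2G21520, AT5G36290 and AT4G24330, at 0.072 to 0.075.

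**Figure D3:**
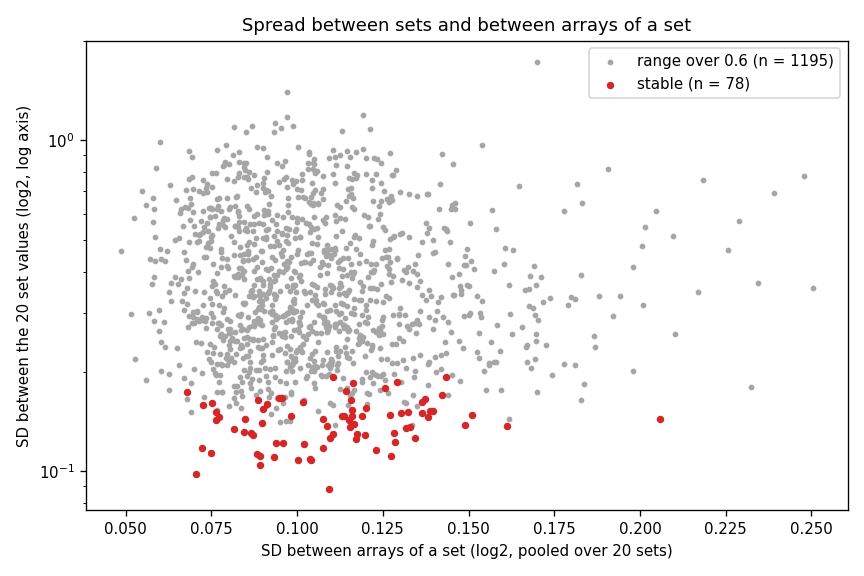
SD between the 20 set values (log2, log axis) against the pooled SD between arrays of a set (log2) for the 78 stable and 1195 other bright locus-named probe sets. The stable genes sit at the bottom of the vertical axis, where the rule put them, but span 0.068 to 0.206 on the horizontal axis like most others.

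The senescing set was most often an extreme. It was the highest set for 15 and the lowest for 15 of the 78 genes, or 38.5% in all, and for the 1195 others it was an extreme in 47.5%. Short-day set 89 came next among the stable genes, at 17.9%, then rosette leaf 2. Rosette leaf 10 was an extreme for 1 gene, and rosette leaf 4 and the sucrose-medium leaf for 2 genes each. Short-day set 90 and cauline leaves, at 26.9% and 20.3% of the others, were extremes for 8 and 10 of the stable genes.

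Relative to each gene's own mean over the sets, the stable genes deviated in senescing leaves by −0.34 to 0.40 in log2, with a median of 0.087. On the deposited scale the others had a median of −0.095 there. The sign of the stable genes' median depended on the scaling: it was −0.054 after quantile normalization, with the senescing set highest for 6 and lowest for 19, and 0.061 with every array set to one median. Over all sets the median on the deposited scale was lowest in short-day set 87, at −0.059, and highest in senescing leaves. Across single arrays the median deviation of the 78 ran from −0.086 to 0.081.

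**Figure D4:**
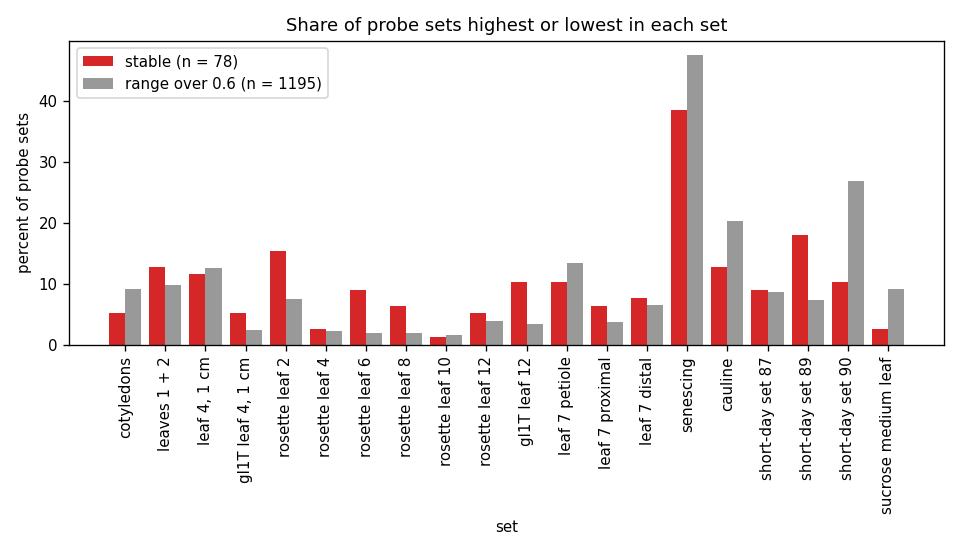
Percent of the 78 stable and 1195 other bright locus-named probe sets for which each of the 20 sets was the highest or the lowest. The senescing set stands out in both groups, at 38.5% and 47.5%.

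The largest differences between senescing leaves and the mean of rosette leaves 2 to 12 went in both directions. AT3G58730 was lower by a log2 difference of −0.45 ± 0.046 (SE, 3 arrays against 6 sets of 3), AT1G80500 differed by −0.39, AT2G19790 by −0.38, AT1G02160 by −0.35 and AT2G44525 by −0.31. On the other side stood AT3G51050, at 0.42 ± 0.085, then AT2G21520 at 0.41, AT5G36210 at 0.40, AT1G04140 at 0.38 and AT5G11770 at 0.36.

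AT1G80500 read 140.0, 150.1 and 166 in senescing leaves, and 219, 208 and 216 in short-day set 87, its highest set. AT2G21520 read 215, 211 and 197 in senescing leaves, and 147, 139 and 138 in leaves 1 and 2, its lowest. For AT3G51050 the senescing arrays, at 242, 231 and 218, were matched by cauline leaves, at 198, 284 and 209.9, where a single array stood well above the others.

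Fits were made across all 15808 probe sets tested. With limma and Benjamini-Hochberg adjustment at 0.05, 77 of the 78 genes differed among the 20 sets, where 99.0% of all probe sets did, and AT5G42960 was the exception, with an adjusted p of 0.078. Between senescing and rosette leaves 52 of 78 were called, against 83.5% of all, with 31 higher and 21 lower where 44.9% and 38.7% of all were. That split was 16 higher and 28 lower after quantile normalization. These fits use the values that chose the genes, so nothing is read from the counts about the genes.

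Between rosette leaf 12 and leaf 2, 29 were called, against 68.7% of all, with 19 higher (35.3% of all) and 10 lower (33.4%). After quantile normalization the split was 27 and 9, and with one median per array 14 and 13. The extremes were AT5G11490, at 0.49 ± 0.106, and AT1G25420, at −0.44 ± 0.119 (SE, n = 3 and 3). Short-day rosettes differed from rosette leaves in 40 genes, against 80.6% of all, with 21 higher (43.3%) and 19 lower (37.3%), and the split was 13 and 24 with one median per array. AT1G23220, at 0.39 ± 0.045, and AT1G30910, at −0.38 ± 0.047, lay at its ends.

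Between gl1T and Col-0, 10 genes were called in leaf 4 of 1 cm, against 33.1% of all, with 4 higher (15.3%) and 6 lower (17.8%). In leaf 12 it was 11, against 28.0%, with 9 higher (16.5%) and 2 lower (11.5%). With one median per array 4 of 6 calls in leaf 12 were higher. The count in leaf 4 was 4 without Col-0 replicate 1, 5 without gl1T replicate 1 and 4 without gl1T replicate 2, and that in leaf 12 was 7 without gl1T replicate 1, the array with the GAPDH ratio of 3.23. The shares of all probe sets called with this scaling or without these arrays were not counted, so nothing is read from these changes in count. The part of RNA integrity in the gl1T calls was not tested. AT1G04140, at 0.45 ± 0.099, and AT5G36290, at −0.35 ± 0.065, were the extremes in leaf 12, and AT1G79870, at 0.28 ± 0.073, and AT3G12010, at −0.32 ± 0.096, in leaf 4. AT5G53140, whose arrays are given above, differed by 0.37 ± 0.086 in leaf 12.

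The comparisons with rosette leaves share those arrays as controls. None of the 78 genes was called in all 5 comparisons. The 6 called in none, singled out after their values were seen, were AT3G20920, AT3G54790, AT5G12120, AT5G46030, AT5G66120 and AT5G66240. The matching shares of all probe sets were not counted, and the rule limited these differences, so nothing is read from either count.

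The stable genes did not share one profile over the sets. Among 3003 pairs, the correlation of set values had a median r of 0.036 over the 20 sets, and 0.833% of pairs had an r above 0.7, while 0.533% had a negative r of more than that size. For the others these shares were 10.1% and 9.40%. The first principal component took 22.8% of the variance of the stable genes, with its largest loading on short-day set 90, against 55.7% for the others. These correlations are descriptions over points that share arrays, and the rule itself limited how far the values could vary.

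The most alike pairs were AT5G16550 with AT4G25660, at an r of 0.85, AT3G03330 with AT1G04140, at 0.80, and AT3G58730 with AT3G48140, at 0.80. The most opposed were AT5G47310 with AT3G48140, at −0.85, and AT3G51050 with AT2G19790, at −0.82. AT5G47310 was lowest in the distal portion of leaf 7, at 136, 143 and 133, where AT3G48140 was highest.

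**Figure D5:**
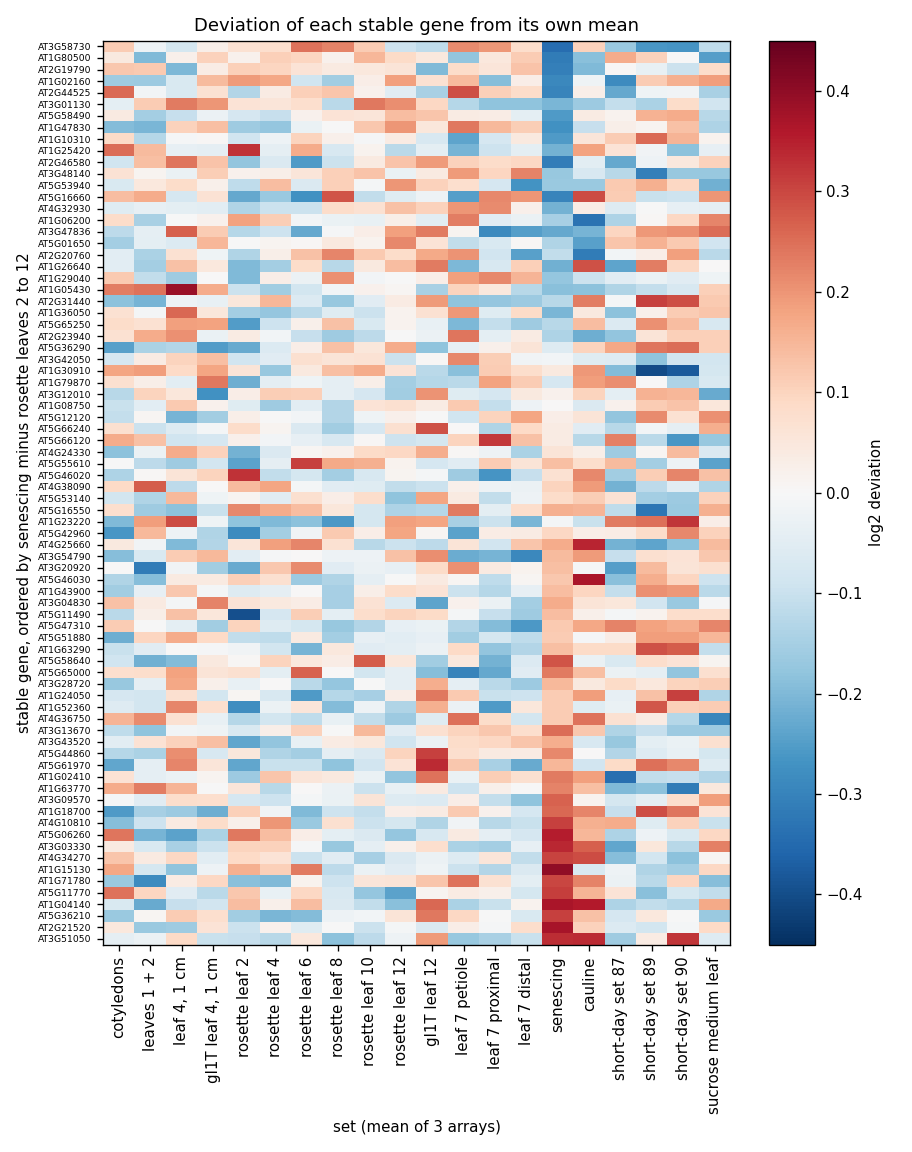
Deviation of each of the 78 stable genes from its own mean over the 20 sets (log2 of set mean + 6), with genes in rows and sets in columns. Colours change sign from gene to gene within most columns, and the senescing column holds values from −0.34 to 0.40.

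By their locus identifiers, 24 of the 78 genes lay on chromosome 1, 7 on chromosome 2, 15 on chromosome 3, 7 on chromosome 4 and 25 on chromosome 5. As shares of the bright locus-named genes of each chromosome these were 7.62%, 3.55%, 5.77%, 3.72% and 7.99%. The closest neighbours, AT5G46020 and AT5G46030, had 1 coding gene between them in the RefSeq annotation, and their set values correlated at 0.64 over the 20 sets. AT5G46020 was highest in rosette leaf 2 and AT5G46030 in cauline leaves.

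A list of 17 genes proposed as references for Arabidopsis gave 10 with a single-gene probe set here. The list stems from work on large array collections of this kind and is not independent of such data. AT4G34270 was the only stable gene on it, with arrays at 99.4, 104 and 100.2 in short-day set 87, its lowest set, and 135, 143 and 156 in senescing leaves, its highest. AT2G28390 had a range of 0.37 but a lowest set mean of 93.1, and AT5G55840 had 0.38 with a lowest set mean of 17.1, so both missed the level of 100. The other 7 exceeded 0.6: AT2G32170 at 0.62, AT5G46630 at 0.65, PEX4 at 0.66, AT5G12240 at 0.73, AT4G26410 at 0.82, AT5G15710 at 1.32 and AT4G33380 at 1.33. Only 5 probe sets of the list, AT4G34270 among them, reached a mean of 100 in every set. Some of these 7 thus missed that level as well. Of 13 traditional reference genes 1 had such a probe set, GAPC2, a cytosolic glyceraldehyde-3-phosphate dehydrogenase of glycolysis, with a range of 0.85 and its lowest mean in senescing leaves.

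The 6 symbol-named genes that met the same limits of level and range were listed after their values were seen. UBC27, a ubiquitin-conjugating enzyme, had a range of 0.39 and set means of 207 to 272. RBP45B, an RNA-binding protein, had 0.52, LSM1A, a component of the complex that promotes mRNA decapping, 0.59, and RAB6A, a GTPase of Golgi traffic, 0.56. RTH and AQI had 0.57 and 0.58.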

How the data were processed

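The deposited values are intensities, 1 per probe set and array, made by the authors with MAS5, per the submitters' processing notes, and its version is not given in the sources used here. Gene names came from the platform annotation, and all 78 genes matched RefSeq by gene ID. Product descriptions, promoters and proteins were not used here. Groups came from the labels. The first array of set 14 is labelled leaf 4 and the other arrays leaf 6, and it was kept with leaf 6.

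The members and gene lists were chosen with earlier results of these data known. Set values were log2(mean signal + 6). To be tested, a probe set had to exceed the 40th percentile of signal on each array of some set, which 15808 did. They were fitted on log2(signal + 6) with limma 3.58.1 in R 4.3.3, 1 mean per set and 40 residual degrees of freedom, with Benjamini-Hochberg adjustment at 0.05. The procedure was tested on simulated data. Fold changes on this scale understate changes of dim genes.

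Genes named were the 10 with the narrowest range, the 10 brightest, the 5 on each side of the limit, the 5 with the smallest and largest array spread, the 5 highest and lowest in senescing leaves, and the reference list. Genes at the ends of other comparisons, in correlated pairs or called in no comparison were singled out after their values were seen. Alternatives changed the pseudocount, limits, scaling and sets, and left out each array. The number of arrays limits the precision.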

Additional observations from a re-analysis of the deposited data

How the results depend on the processing

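The number of stable genes, 78, depended on the limits and the sets. It was 157 with a lowest set mean of 50 and 20 with 200, and 7 with a range of 0.4 and 243 with 0.8. It was 140 without senescing leaves and 147 without the short-day and sucrose-medium sets. Leaving out any other set, chosen after seeing the data, gave 78 to 97. Under this rule leaving out sets can only keep or add genes, so the direction of these changes was fixed in advance. Leaving out each array gave 74 to 84, and 38 genes were kept in all 60 of these runs. Quantile normalization gave 76, of which 51 were shared, and one median per array 86, of which 63 were shared. AT3G43520 and AT3G42050 were the 2 genes kept under all 33 other alternatives. Most of these could not lose a gene, because leaving out sets, loosening a limit or raising the pseudocount can only keep or add genes. The stricter limits of 200 and 0.4 act on the values that the rule used. Nothing is therefore read from this about the 2 genes.

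With one median per array, gl1T and Col-0 differed in 6 genes in leaf 4 and 6 in leaf 12. Leaving out each array gave 76 to 78 genes that differed among sets, 41 to 53 for senescing leaves, 22 to 31 for leaf 12 against leaf 2, 4 to 10 and 7 to 12 for gl1T in leaf 4 and leaf 12, and 35 to 41 for short days. The cause was not tested. Over 551 same-letter pairs of arrays between sets the median r was −0.00031, the highest was 0.17 and 5 exceeded 0.1. Of 60 arrays, 25 correlated best with their own letter. No general pairing by replicate letter was thus seen, but pairing among a few of the sets was not tested. With a replicate block the counts were 76, 53, 28, 8, 12 and 36. The shares of all probe sets called after these changes, or after the changes of scaling given above, were not counted. Nothing is read about the genes from how the counts moved.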
